A study of Mus musculus with 2 samples.

Results

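The genes described here are 10 members of the transcriptional response to low oxygen that do not encode glycolytic enzymes, namely *Hif1a*, *Egln1*, *Egln3*, *Vegfa*, *Bnip3*, *Bnip3l*, *Ddit4*, *Kdm3a*, *Ndrg1* and *Ankrd37*. They were taken by symbol from a deposited table of 22156 genes, and all 10 were among the 12431 genes that reached 10 counts when both libraries were added, called the genes tested below although no p-value was computed. The members were chosen on the measured difference between the same libraries that are compared here, so their values are a description and no test was made on them. RNA sequencing was carried out on primary chondrocytes, cartilage cells of newborn mice on a C57BL/6J background cultured as a monolayer. Their source is rib cartilage in the labels, while the methods describe rib and articular cartilage. The *Myl3*-KO library came from *Col2a1*-Cre; *Myl3* flox/flox mice, in which a Cre recombinase driven by the promoter of the type II collagen gene deletes *Myl3*, which encodes a myosin light chain. The control library came from mice that the sample labels call WT and that the study's methods describe as littermates carrying the floxed allele without Cre, so by the methods both groups share that allele. No treatment, and so no low-oxygen exposure, is named in the labels. Each genotype had 1 library, so the spread between cultures could not be measured, and genotype cannot be told apart from any other difference between the cultures. How many mice were pooled is not given in the sources used here.

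Cells read oxygen through prolyl hydroxylases, the products of the *Egln* genes, which use oxygen to hydroxylate the transcription factor subunit HIF-1α and so mark it for the von Hippel-Lindau ubiquitin ligase and for degradation. When oxygen is scarce HIF-1α escapes this mark, pairs with ARNT and binds a short core motif near its target genes, many of which act in energy metabolism, vessel growth, mitophagy and matrix synthesis. Cartilage has no blood vessels, and HIF-1α is known for keeping chondrocytes alive in the growth plate. Much of its control acts on protein stability, which RNA sequencing does not measure.

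Expected counts summed to 17612435 for the control library and 13477977 for the *Myl3*-KO library. A count of 3 was the floor, equal to 0.170 and 0.223 CPM, which is a count for every 1000000 of the library. *Myl3* had no counts in either library in the deposited table and so did not serve as a check of the labels. Of 10 chondrocyte markers, *Acan*, *Matn1*, *Matn3* and *Hapln1* were at 0 counts in both libraries, *Col2a1* had 30 and 27 counts, and the summed level of the list was 57.9 CPM in control cells against 45.6 CPM in *Myl3*-KO. *Sox9*, the transcription factor of the chondrocyte lineage, made up most of this sum with 866 and 480 counts. Most of the listed cartilage genes were thus absent or scarce in libraries labelled as chondrocytes. The 6 fibroblast markers summed to 15410 and 17513 CPM, with *Thy1* at 0 in both. *Col1a2* alone made up 12017 and 14039 CPM of these sums. The summed levels of 4 markers each were 1.53 and 2.67 CPM for endothelial cells, 1.88 and 2.08 for immune cells, 0.284 and 0.0742 for muscle, and 0 and 0.0742 for erythroid cells. The part of these marker differences in the results below was not tested. In bulk RNA, fewer cells of a type and less RNA per cell cannot be told apart.

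Of the 10 genes, 8 had a lower level in the *Myl3*-KO library and *Ddit4* and *Kdm3a* had a slightly higher one. *Ankrd37* and *Egln3* were lower by at least 1.5-fold and 0 of the 10 were higher by that much, beside 2.90% of all genes tested that were lower and 6.17% that were higher by at least 1.5-fold. The counting interval of the log2 ratio lay wholly below 0 for 7 of the 10, beside 20.1% of all genes tested. At the median, the 10 genes had a log2 ratio of -0.40 and the whole set of tested genes one of 0.02. Since the members were picked for this difference, nothing about the response is read from these counts. Log2 ratios are *Myl3*-KO over control after division by the library total, and each interval is the 95% Clopper-Pearson interval of the split of the counts between the libraries, which covers counting error only.

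**Figure D1:**
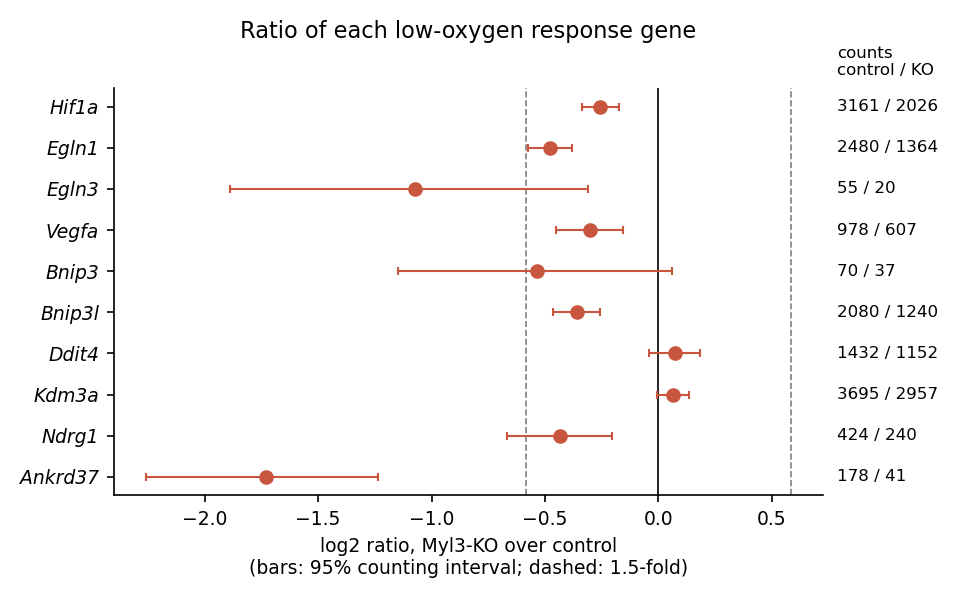
Log2 ratio of *Myl3*-KO over control for the 10 low-oxygen response genes, with 1 library per genotype. Points are the ratios, bars are 95% counting intervals, and dashed lines mark 1.5-fold in each direction. *Ankrd37* and *Egln3* lie past the lower line at -1.73 and -1.07, and *Ddit4* and *Kdm3a* lie just above 0.

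*Hif1a* (ENSMUSG00000021109), which encodes the oxygen-regulated HIF-1α subunit itself, lies on chromosome 12 of GRCm38 from 73901375 to 73947530 on the plus strand. Its reads came to 3161 control and 2026 *Myl3*-KO counts, or 39.45 and 33.05 FPKM, the deposited unit that scales reads by gene length and library. The *Myl3*-KO level was 1.19-fold lower, with a log2 ratio of -0.26 and an interval of -0.34 to -0.17. *Hif1a* was thus an abundant transcript in both libraries, and its difference was smaller than 1.5-fold. The genes listed with it were other HIF subunits, coactivators and a competitor for the coactivators. In this list of 7 genes, 6 were tested, 0 passed 1.5-fold in either direction, 6 had ratios above 0 and the median was 0.20. The interval lay wholly above 0 for 5 of them. Over all genes tested, 6553 of 12431 had ratios above 0, and 2762 had intervals wholly above 0. *Arnt*, the constitutive partner of HIF-1α, had 1579 and 1468 counts (log2 ratio 0.28), and *Arnt2*, its paralogue, had 1363 and 1419 (0.44). *Cited2*, which competes with HIF-1α for the coactivators p300 and CBP, was the most abundant gene of the list with 9577 and 7879 counts (0.10). *Epas1*, encoding the related subunit HIF-2α, was near the detection limit with 10 and 8 counts and an interval that included 0. *Hif3a* was at 0 in both libraries.

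*Egln1* and *Egln3* encode the prolyl hydroxylases PHD2 and PHD3, which act on HIF-1α and are themselves known targets of it. *Egln1* (ENSMUSG00000031987, chromosome 8 from 124908587 to 124949324, minus strand) had 2480 control and 1364 *Myl3*-KO counts, or 39.18 and 28.16 FPKM. It was 1.39-fold lower, with a log2 ratio of -0.48 and an interval of -0.57 to -0.38. This difference, smaller than 1.5-fold over the whole interval, rested on 3844 counts over both libraries. *Egln3* (ENSMUSG00000035105, chromosome 12 from 54178981 to 54203860, minus strand) was scarce, with 55 control and 20 *Myl3*-KO counts, or 1.17 and 0.56 FPKM. It was 2.10-fold lower, with a log2 ratio of -1.07. Its interval of -1.89 to -0.31 was the widest of the 10 genes and reached well inside 1.5-fold. The third family member, *Egln2*, which is not known as a strong target of low oxygen, had 594 and 449 counts and a log2 ratio of -0.02. The 3 hydroxylase genes therefore had ratios of -0.48, -1.07 and -0.02 in the same libraries.

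The RefSeq promoter window of *Egln3* is shown because the gene was lower by more than 1.5-fold and its window holds 1 match to the HIF core motif. The stretch is the 250 bases before the start site, chr12:54203875-54204124 of GRCm38.p6 on the minus strand, written 5′ to 3′ with the match in capitals.
Egln3: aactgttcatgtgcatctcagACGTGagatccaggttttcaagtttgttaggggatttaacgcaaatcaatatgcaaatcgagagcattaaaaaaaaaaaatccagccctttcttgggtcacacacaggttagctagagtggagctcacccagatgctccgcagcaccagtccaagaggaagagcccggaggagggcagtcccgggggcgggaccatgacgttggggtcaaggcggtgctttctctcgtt

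The genes listed for oxygen sensing and HIF-1α turnover all had ratios below 0, and 5 of the 9 counting intervals lay wholly below 0. Over all genes tested, 47.3% of the ratios were below 0 and 20.1% of the intervals lay wholly below 0. All 9 listed genes were tested, 2 were lower by at least 1.5-fold, 0 were higher by that much, and the median was -0.19. The shares of all genes tested were 2.90% lower and 6.17% higher by that much. *Eloc*, encoding elongin C of the von Hippel-Lindau ligase, had 1286 and 611 counts (log2 ratio -0.69, interval -0.83 to -0.55). *P4htm*, encoding a membrane-bound prolyl hydroxylase, had 39 and 18 counts (-0.73), and its interval of -1.62 to 0.11 included 0. *Elob*, encoding elongin B of the same complex, was the most abundant by count with 2171 and 1352 (-0.30), *Vhl* had 1269 and 852 (-0.19), and *Hif1an*, encoding the asparaginyl hydroxylase FIH, had 1062 and 801 (-0.02).

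*Vegfa* (ENSMUSG00000023951), encoding the secreted growth factor that draws blood vessels into cartilage, lies on chromosome 17 from 46016993 to 46032369 on the minus strand. Its counts were 978 for control and 607 for *Myl3*-KO, or 18.28 and 15.32 FPKM. The *Myl3*-KO level was 1.23-fold lower, with a log2 ratio of -0.30 and an interval of -0.45 to -0.15. The other ligands and the receptors of the family did not share one direction. Of 9 listed genes 5 were tested, 0 passed 1.5-fold, 2 were below 0 and 3 above, with a median of 0.17. *Vegfb* had 396 and 340 counts (0.17), and *Vegfd* had 318 and 239 (-0.03). *Nrp2*, a co-receptor, was the most abundant gene of the list with 1790 and 1718 counts (0.33). The receptor tyrosine kinases of endothelial cells were nearly undetected, with 29 and 16 counts of *Flt1*, 2 and 5 of *Kdr* and none of *Flt4*.

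*Bnip3* and *Bnip3l* encode related proteins of the outer mitochondrial membrane that recruit the autophagy machinery, and so mark mitochondria for removal when oxygen is low. *Bnip3l* (ENSMUSG00000022051, chromosome 14 from 66985239 to 67008877, minus strand) had 2080 control and 1240 *Myl3*-KO counts, or 36.47 and 28.41 FPKM. It was 1.28-fold lower, with a log2 ratio of -0.36 and an interval of -0.46 to -0.26. *Bnip3* (ENSMUSG00000078566, chromosome 7 from 138890836 to 138909519, minus strand) had 70 and 37 counts, or 5.18 and 3.63 FPKM. Its ratio was further from 0 than that of *Bnip3l*, at -0.53 or 1.45-fold lower, but its interval of -1.15 to 0.06 included 0. Both are uncertain for another reason. Of the 31-base words of their GENCODE M21 transcripts, 20.3% for *Bnip3* and 23.7% for *Bnip3l* occur in another gene, mostly *Gm16439* and *Bnip3l-ps*. Neither of these is among the genes of the deposited table. The counting could have shared or lost reads, which was not tested. For the other 8 members this share was between 0% and 2.04%.

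The promoter window of *Bnip3* is shown because it holds the most matches of any window of the 10 genes, 5 when both strands are counted. Its E-box CACGTG is 1 site that matches on both strands and so counts as 2 of these. The stretch is 237 bases upstream of the annotated exon, chr7:138909520-138909756 of GRCm38.p6 on the minus strand, with matches on either strand in capitals.
Bnip3: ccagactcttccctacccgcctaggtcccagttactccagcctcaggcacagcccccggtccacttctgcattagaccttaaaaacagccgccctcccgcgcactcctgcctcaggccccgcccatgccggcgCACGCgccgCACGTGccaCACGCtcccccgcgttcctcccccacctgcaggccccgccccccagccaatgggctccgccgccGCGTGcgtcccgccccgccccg

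Other mitophagy genes lay on both sides of 0. All 13 listed receptors and partners were tested, 0 passed 1.5-fold in either direction, and the median was -0.02. The counting interval lay wholly below 0 for 3 of them and wholly above 0 for 4, beside 2504 and 2762 of the 12431 genes tested. *Sqstm1*, encoding the autophagy adaptor p62, was the most abundant with 6692 and 5786 counts (log2 ratio 0.18). *Fundc1*, another low-oxygen mitophagy receptor, had 1167 and 802 counts (-0.16), *Pink1* had 549 and 530 (0.34), and *Map1lc3b*, whose product LC3B binds the receptors, had 2891 and 2657 (0.26). In the deposited pathway annotation, mitophagy held 62 tested genes, *Hif1a*, *Bnip3* and *Bnip3l* among them, of which 0 were lower and 2 higher by at least 1.5-fold, with a median of -0.02.

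*Ddit4* and *Kdm3a* were the members without a lower level. *Ddit4* (ENSMUSG00000020108), whose product REDD1 restrains the growth kinase complex mTORC1, lies on chromosome 10 from 59949669 to 59951834 on the minus strand. Its counts were 1432 for control and 1152 for *Myl3*-KO, or 46.33 and 48.70 FPKM, the highest level per length of the 10 genes in both libraries. Its log2 ratio was 0.07 with an interval of -0.04 to 0.19. *Kdm3a* (ENSMUSG00000053470), encoding a histone H3 lysine 9 demethylase that itself needs oxygen, lies on chromosome 6 from 71588972 to 71632990 on the minus strand. It had 3695 and 2957 counts, the most of the 10 genes, or 43.52 and 45.50 FPKM. Its log2 ratio was 0.06 with an interval of -0.01 to 0.13. Both intervals included 0, and both excluded the ratios of -0.26 and below found for *Hif1a*, *Egln1*, *Vegfa* and *Bnip3l*.

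The promoter window of *Ddit4* is shown for contrast, since it holds 2 core motif matches while the gene had a ratio near 0. The stretch is 186 bases upstream of the exon, chr10:59951835-59952020 of GRCm38.p6 on the minus strand, with matches in capitals.
Ddit4: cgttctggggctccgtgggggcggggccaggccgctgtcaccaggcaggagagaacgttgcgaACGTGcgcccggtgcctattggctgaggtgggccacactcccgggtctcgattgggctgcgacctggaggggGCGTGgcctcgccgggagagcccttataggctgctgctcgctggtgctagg

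*Ddit4* also responds to amino acid and endoplasmic reticulum stress through ATF4 and to glucocorticoids, and the genes of these routes were listed beside it. The part of these routes in the level of *Ddit4* was not tested. All 5 ATF4 genes were tested, and 2 were lower and 0 higher by at least 1.5-fold, beside 2.90% and 6.17% of all genes tested. The median of the 5 was -0.44. Within this list, *Ddit3* had 366 and 280 counts and a log2 ratio of -0.0004, whose sign changed with the setting. *Trib3*, a pseudokinase gene induced by ATF4, had 103 and 43 counts (log2 ratio -0.87), *Chac1*, encoding a glutathione-degrading enzyme, had 169 and 83 (-0.64), and *Atf4* itself was the most abundant with 4495 and 2883 (-0.25). Of 5 glucocorticoid-responsive genes 4 were tested, 0 passed 1.5-fold, and all 4 had ratios above 0 with a median of 0.27. *Sgk1*, a kinase gene, had 1083 and 1035 counts (0.32), the most of that list. Among 13 genes of the mTORC1 branch 12 were tested and 0 passed 1.5-fold, with a median of 0.08. *Rheb*, encoding the GTPase that activates mTORC1, had 2691 and 1609 counts (-0.36), *Tsc2*, encoding the GTPase-activating protein through which REDD1 acts, had 1636 and 1464 (0.23), and the paralogue *Ddit4l* was at 0 in both libraries. The paralogues of *Kdm3a* had ratios of 0.22 for *Kdm3b* (1077 and 961 counts) and 0.10 for *Jmjd1c* (4107 and 3360 counts).

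*Ndrg1* (ENSMUSG00000005125), a cytoplasmic stress-response gene long used as a marker of low oxygen, lies on chromosome 15 from 66929318 to 66969640 on the minus strand. Its counts were 424 for control and 240 for *Myl3*-KO, or 9.36 and 6.17 FPKM. By counts it was 1.35-fold lower, with a log2 ratio of -0.44 and an interval of -0.67 to -0.20. By the ratio of the deposited FPKM values it passed 1.5-fold, at -0.60, and it was the only one of the 10 whose side of 1.5-fold depended on the unit. Its paralogues did not have lower levels of that size. *Ndrg3* had 1676 and 1306 counts (0.03, and just below 0 with TMM scaling), *Ndrg4* had 324 and 294 (0.25), and *Ndrg2* had 2 and 0.

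*Ankrd37* (ENSMUSG00000050914), encoding a small ankyrin repeat protein and known as a direct HIF-1 target, had the lowest ratio of the 10. It lies on chromosome 8 from 45996902 to 46005707 on the minus strand. Its counts were 178 for control and 41 for *Myl3*-KO, or 10.90 and 3.28 FPKM. The *Myl3*-KO level was 3.32-fold lower, with a log2 ratio of -1.73 and an interval of -2.26 to -1.24, so the whole interval lay past 1.5-fold. Among all genes tested its ratio was the 19th from the lowest of 12431, and it was the 2nd of the 10485 genes that reached 100 counts in total. Its locus overlaps *Ufsp2* and *Lrp2bp* on the opposite strand, and the strand used in counting is not given in the sources used here. *Ufsp2* had 1324 and 962 counts, a log2 ratio of -0.07, and *Lrp2bp* had 3 and 5 counts. The nearest counted genes on either side that do not overlap it, *1700029J07Rik* and *Snx25*, had ratios of -0.09 and -0.10.

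The promoter window of *Ankrd37* is shown because this gene had the lowest ratio, and 3 of the 4 matches in its window fall in the printed stretch. These are 233 bases, chr8:45999868-46000100 of GRCm38.p6 on the minus strand, which lie within introns of longer annotated transcripts of *Ankrd37* and of *Lrp2bp*. Matches on either strand are in capitals, and the longer capital run holds a pair that overlap on opposite strands.
Ankrd37: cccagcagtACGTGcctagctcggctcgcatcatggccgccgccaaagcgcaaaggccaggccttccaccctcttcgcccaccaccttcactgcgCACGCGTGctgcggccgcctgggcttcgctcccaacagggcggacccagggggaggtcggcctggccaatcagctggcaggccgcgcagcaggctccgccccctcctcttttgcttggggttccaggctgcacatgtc

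**Figure D2:**
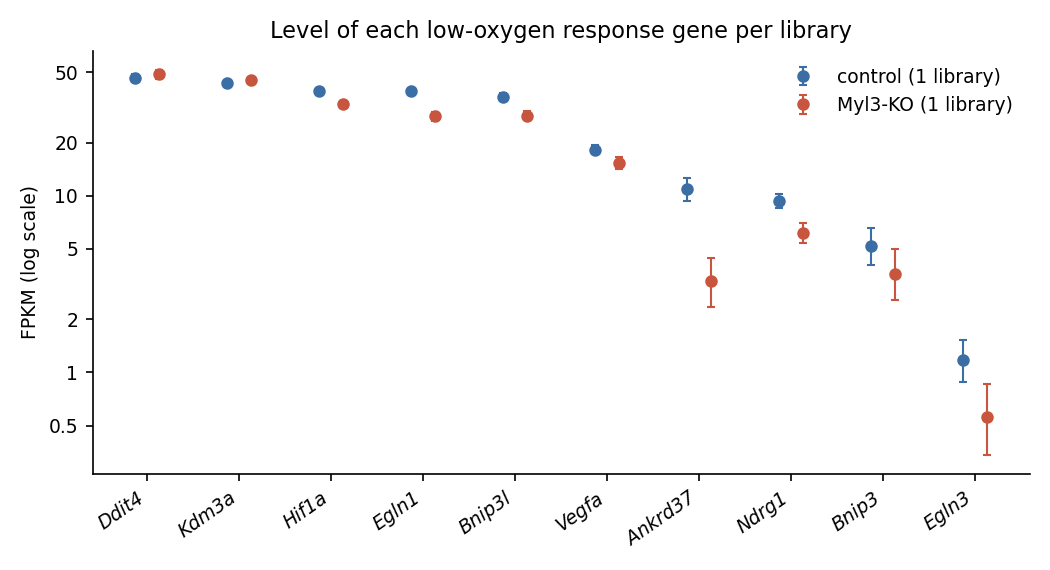
Deposited FPKM of the 10 genes in the control library and the *Myl3*-KO library on a log axis, 1 library each, with bars for the counting interval. The genes span from 1.17 FPKM for *Egln3* to 46.33 FPKM for *Ddit4* in the control, and the gap between libraries is widest for *Ankrd37*, 10.90 against 3.28.

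Levels per length, in FPKM, differed widely between the members. In the control, *Ddit4* and *Kdm3a* were followed by *Hif1a*, *Egln1* and *Bnip3l* at 39.45, 39.18 and 36.47, then *Vegfa* at 18.28, *Ankrd37* at 10.90, *Ndrg1* at 9.36, *Bnip3* at 5.18 and *Egln3* at 1.17. By their counting intervals, *Ddit4* was not separated from *Kdm3a*, *Hif1a* from *Egln1*, *Egln1* from *Bnip3l*, or *Ankrd37* from *Ndrg1*, while the other neighbours in the order were. In *Myl3*-KO the order of the upper genes was nearly kept, with *Bnip3l* and *Egln1* at 28.41 and 28.16 and overlapping intervals. *Ankrd37* moved from place 7 to place 9, below *Ndrg1* and *Bnip3*, though its interval overlapped that of *Bnip3*.

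**Figure D3:**
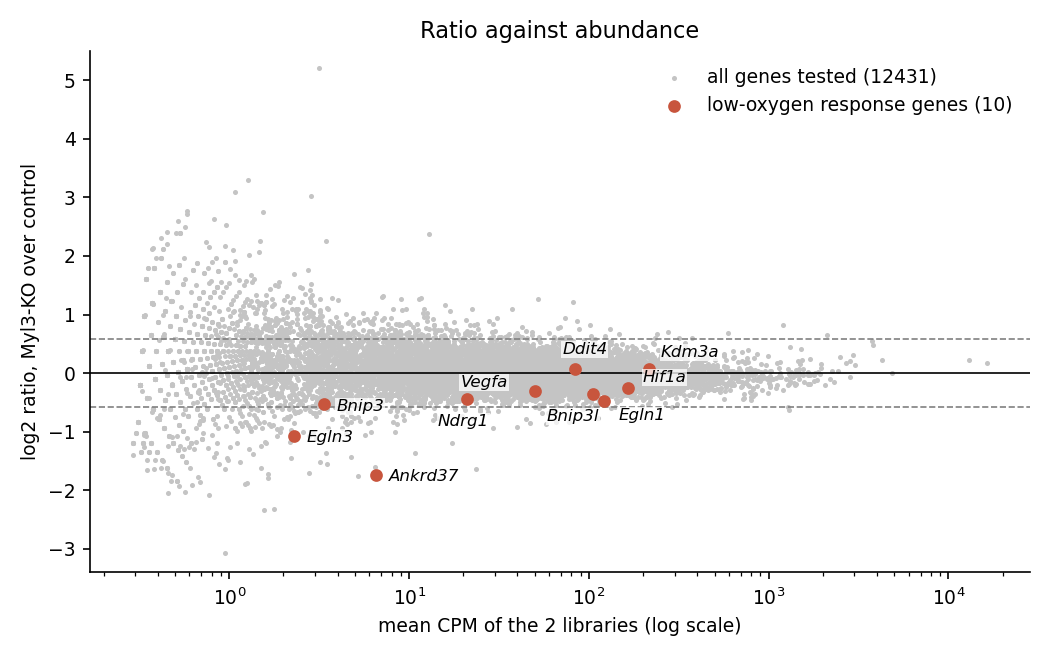
Log2 ratio of *Myl3*-KO over control against the mean CPM of both libraries on a log axis, for the 12431 genes tested in grey and the 10 low-oxygen response genes in red, with dashed lines at 1.5-fold. *Ankrd37*, *Egln3* and *Bnip3* lie where the ratios of all genes spread widely, and the 7 other members lie where few genes pass 1.5-fold.

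The spread of all genes depended on the counts behind them. Among the 9582 genes with at least 100 counts in each library, 0.386% were lower and 1.70% higher by at least 1.5-fold. *Hif1a*, *Egln1*, *Vegfa*, *Bnip3l*, *Ddit4*, *Kdm3a* and *Ndrg1* belong to these genes and none of them passed 1.5-fold, while *Ankrd37*, *Egln3* and *Bnip3* had fewer counts in at least 1 library.

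Across the promoter windows of 300 bases that RefSeq gives for the members, 11 windows of 8 genes, the HIF core motif ACGTG or GCGTG was searched on both strands. It occurred in 8 of 11 windows (72.7%), beside 62.1% of 12123 windows of genes tested and 43.8% of all 32851 windows. *Bnip3* had 5 matches, *Ankrd37* 4, *Hif1a* 3, *Egln1* and *Ddit4* 2 each and *Egln3* 1. One of 2 *Vegfa* windows, which lies inside the gene, held 2 matches and one of 3 *Kdm3a* windows held 1. In both of these windows, 0 matches fell in the longest upstream stretch free of annotated exons. The E-box CACGTG, which contains ACGTG on both strands and so counts as 2 matches, occurred in the windows of *Bnip3* and *Hif1a*. The number of matches did not order the genes by their ratios, since *Egln3* with 1 match and *Ankrd37* with 4 had the lowest ratios and *Ddit4* with 2 had the highest. A match is a run of letters in this window and not a measured binding site.

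**Figure D4:**
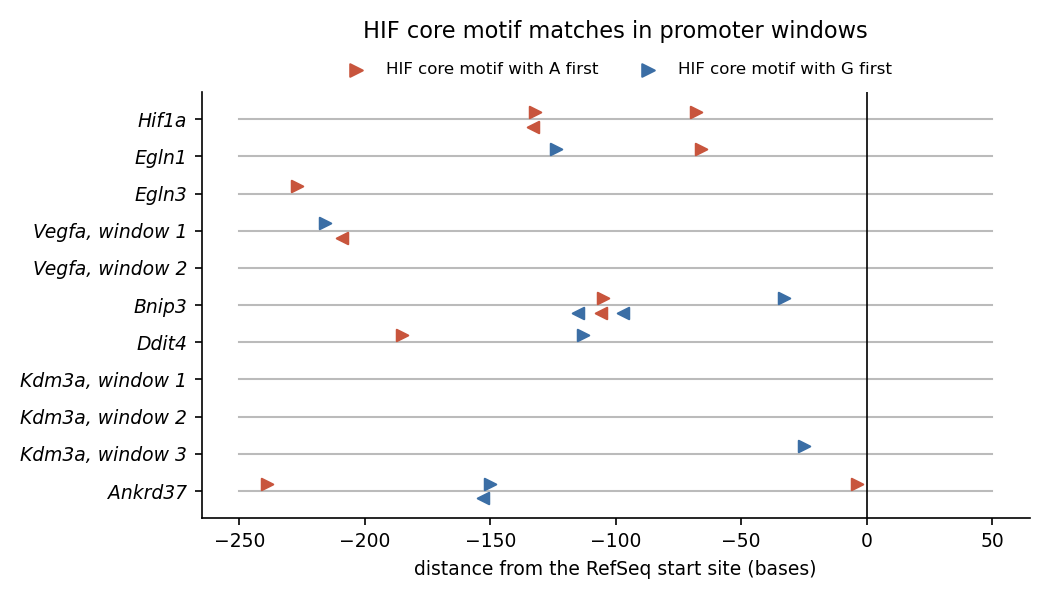
Positions of HIF core motif matches in the 11 RefSeq promoter windows of 8 members, in bases from the start site. Triangles pointing right are matches on the strand of the gene and those pointing left on the other strand, in red for the form that begins with A and blue for the form that begins with G, with no match in 1 *Vegfa* window and 2 *Kdm3a* windows.

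A list of 35 other known HIF target genes outside glycolysis, written with earlier results of these data known, was counted beside the members. Of the 30 tested, 11 were lower and 0 were higher by at least 1.5-fold, 28 had ratios below 0 and the median was -0.31. Over all genes tested, 2.90% were lower and 6.17% higher by that much, and 47.3% had ratios below 0. *Zfp395* moved above 0 with the FPKM ratio, and *Kdm4c* moved just below 0 with TMM or DESeq2 scaling. The lower genes included mitochondrial proteins, with 914 and 372 counts of *Higd1a* (log2 ratio -0.91), 1756 and 755 of *Fam162a* (-0.83) and 1062 and 452 of *Ak4*, an adenylate kinase gene (-0.85). Glycogen genes were among them, with 197 and 75 counts of *Ppp1r3c* (-1.01), a subunit that directs a phosphatase to glycogen, and 238 and 115 of the branching enzyme gene *Gbe1* (-0.66). *Car9*, encoding a carbonic anhydrase, had 120 and 52 counts (-0.82), and *Stc2*, encoding a secreted glycoprotein, had 98 and 39 (-0.94). *P4ha2*, a collagen prolyl hydroxylase subunit gene, had 1355 and 648 counts (-0.68), the transcriptional repressor gene *Bhlhe41* had 91 and 45 (-0.63), and *Tmem45a* had 182 and 91 (-0.61). The chemokine receptor gene *Cxcr4* completed the 11 with 23 and 6 counts (-1.55). *Lox*, encoding the lysyl oxidase that crosslinks collagen, was the most abundant with 8837 and 5651 counts (-0.26). *Adm*, *Edn1*, *Mif*, *Ndufa4l2* and *Cox4i2* were under the minimum of 10 counts.

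**Figure D5:**
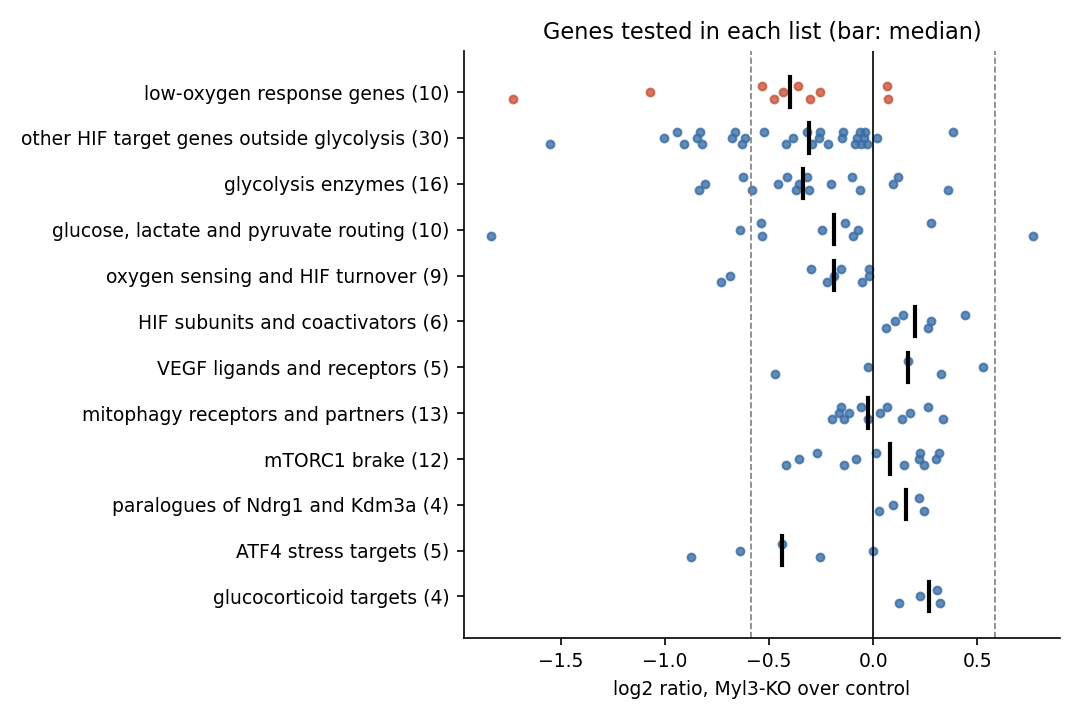
Log2 ratio of *Myl3*-KO over control for each tested gene of the members and of the listed groups, with the median of each group and the lines for 1.5-fold. The medians run from -0.44 for 5 ATF4 genes and -0.40 for the 10 members to 0.27 for 4 glucocorticoid-responsive genes, and all genes tested had a median of 0.02.

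The glycolytic enzymes and the genes that route glucose, lactate and pyruvate, many of which HIF-1 also regulates, are set beside the members. Of 16 glycolysis genes 13 had ratios below 0 and 12 had intervals wholly below 0, beside 47.3% and 20.1% of all genes tested. The median of the list was -0.34, and 3 of its genes were lower and 0 higher by at least 1.5-fold. These were *Hk2* with 1490 and 638 counts (-0.84), *Ldha* with 27835 and 13792 (-0.63) and *Gapdh* with 306 and 134 (-0.81), the last uncertain because near-identical copies can take its reads. Of 10 routing genes 8 had ratios below 0, 2 were lower and 1 higher by at least 1.5-fold, and the median was -0.19. Over all genes tested, 2.90% were lower and 6.17% higher by that much. The lactate transporter gene *Slc16a1* had 1365 and 670 counts (-0.64), and *Pdk2*, a kinase gene of pyruvate dehydrogenase, had 162 and 211 (0.77). *Slc16a3* had 14 and 3 counts, the second at the floor, and its interval of -4.28 to 0.005 included 0. *Pkm* and *Pdha1* were the most abundant genes of these lists, at -0.20 and -0.07. No difference between these groups and the members was tested. The HIF-1 signaling pathway of the deposited annotation holds *Hif1a*, *Vegfa*, *Egln1* and *Egln3* but not the other 6 members. Of its 85 tested genes 7 were lower and 5 higher by at least 1.5-fold, with a median of -0.02, and without the 4 members the median of the other 81 was -0.01.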

How the data were processed

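RNA sequencing of 1 control library and 1 *Myl3*-KO library was analysed. The authors deposited expected counts, estimated reads per gene without normalization, and FPKM values, which the authors scaled by gene length and library. The submitters' processing notes name GRCm38 and mm10, and the aligner, counter and strand setting are not given in the sources used here. The methods describe oligo bead enrichment and random priming, whereas the labels name a SMARTER kit. The column headed NC was read as the control.

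Ratios compared each count as a share of its library total, with counts under 3 raised to 3. Intervals used counts rounded to whole numbers and were tested on data simulated with counting error alone. That simulation held no spread between cultures and so cannot show how the intervals behave with it. With 1 library per genotype, the quasi-likelihood test of edgeR and the test of DESeq2 would have no residual degrees of freedom, so neither was fitted, no p-value is given and "tested" means that both libraries together reached 10 counts. "Lower" or "higher by at least 1.5-fold" is a limit on size alone.

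The members and lists were chosen with earlier results of these data known, and the annotated pathways after the table was read. Genes named are the 10 members, listed genes past 1.5-fold that reached 100 counts in total, the most abundant gene of a list, paralogues and partners of members, and overlapping or nearest genes. Other listed genes named, such as *Cxcr4*, were chosen after their values were seen.

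Loci and shared words came from GENCODE M21 on GRCm38, and promoter windows, 250 bases before to 50 after a start site, from RefSeq on GRCm38.p6, which matched 8 of the 10 members. *Ndrg1* and *Bnip3l* were not matched. Annotated exons were trimmed from printed stretches. Alternatives were TMM and DESeq2 scaling, totals without the 10 most abundant genes, FPKM ratios, 1 added count, other count minimums and fold limits of 1.2 and 2. Ratios and intervals were computed in Python (3.11.15; scipy 1.17.1, pandas 2.3.3, numpy 2.4.6), figures with matplotlib 3.10.9, and scaling factors with DESeq2 1.42.0 and edgeR 4.0.16 under R 4.3.3.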

Additional observations from a re-analysis of the deposited data

How the results depend on the processing

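No paired analysis was possible because each genotype has 1 library, and for the same reason no library could be left out. The median of the 10 members, -0.40, ranged from -0.42 with TMM scaling to -0.38 without the 10 most abundant genes. All 50 recomputed ratios of single members kept their sign and moved by less than their counting interval, with the largest shift, 0.17, for *Ndrg1* under the FPKM ratio. The count of members lower by at least 1.5-fold was 2, was 3 with the FPKM ratio, 2 at a limit of 2-fold and 7 at a limit of 1.2-fold, so it depends on where the limit is set. With at least 100 counts in each library, the share of all genes past 1.5-fold was 0.386% lower and 1.70% higher in place of 2.90% and 6.17%. Scaling moved the median of all genes by -0.03 at most. Among the listed groups, 5 of 170 recomputed counts differed. The lower glycolysis genes numbered 3 by library totals and 4 with TMM or DESeq2 scaling, the higher fibroblast markers 1 and then 0 with both scalings, and the higher endothelial markers 1 and then 0 with the FPKM ratio. Depth limits *Egln3*, *Bnip3* and *Ankrd37*, with 75, 107 and 219 counts over both libraries.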

Other observations

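Among the 9582 genes with at least 100 counts in each library, 37 were lower by at least 1.5-fold in *Myl3*-KO. Of these 37, 10 belong to the lists set beside the members, which hold 97 such genes, 0 are among the 7 members with that many counts, and 27 come from the other 9478. The 10 are *Higd1a*, *Ak4*, *Hk2*, *Fam162a*, *Gapdh*, *Eloc*, *P4ha2*, *Gbe1*, *Slc16a1* and *Ldha*. The lists were written with earlier results of these data known, so these counts are a description.

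Genes outside the lists were named here after their values were seen. *Dcn*, encoding the small proteoglycan decorin, had the lowest ratio of the 37, with 631 and 155 counts (log2 ratio -1.64). *Apln*, encoding the peptide ligand apelin, which low oxygen is known to induce, had 682 and 272 counts (-0.94). *Chchd4*, encoding a mitochondrial import protein, had 534 and 260 (-0.65), and *Cycs*, encoding cytochrome c, had 2819 and 1434 (-0.59). *Psph* and *Mthfd2*, of serine synthesis and mitochondrial folate metabolism, had 1182 and 565 counts (-0.68) and 1939 and 980 (-0.60).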
